A study of Mus musculus with 16 samples.

Results

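The 8 genes Kcnj10, Kcnj16, Aqp4, Dtna, Dag1, Atp1b2, Fxyd1 and Slc4a4 move potassium, water, sodium and bicarbonate across the astrocyte membrane or anchor the proteins that do so at the endfoot. They were chosen by symbol from the 24060 genes measured in each library, and all 8 were found in all 16 libraries. RNA came from the somatosensory cortex of C57BL/6J mice aged 3 months that carried both Aldh1l1CreERT2 and RiboTag, a transgene pair in which Cre, driven by the astrocyte gene Aldh1l1 and switched on by tamoxifen, adds an HA tag to the ribosomal protein Rpl22. The mice were males and females. Every mouse, naïve ones included, was given tamoxifen at 2 months. Naïve mice stayed in the home cage, and stressed mice swam for 20 min and then recovered for 90 min. Each condition had 4 IP libraries, made of RNA pulled down on tagged astrocyte ribosomes, and 4 INPUT libraries, made of RNA from all cells of the cleared lysate. Libraries are named here by their own numbers: 2, 8, 11 and 13 are naïve IP, 4, 5, 6 and 15 stress IP, 3, 7, 14 and 16 naïve INPUT, and 1, 9, 10 and 12 stress INPUT, and values are always listed in that order. IP and INPUT came from the same mice, but which libraries share a mouse is not given in the labels, so libraries were compared as independent samples.

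Astrocytes wrap blood vessels with endfeet, processes packed with inwardly rectifying potassium channels and water channels. Potassium released by active neurons enters astrocytes through these channels and through the sodium pump, and leaves again at vessels or elsewhere in the astrocyte network. Dystroglycan and the dystrophin complex link the endfoot membrane to laminin and agrin of the vessel's basement membrane and hold the water channel there. The sodium that the pump moves out also sets the gradient on which bicarbonate transport runs.

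The reads counted on genes numbered 16392876 to 25814364 in a library, and each member had at least 301 reads in every library. Levels are given as CPM, the reads on a gene per 1000000 reads on all genes of the library, with the mean ± SD over 4 libraries. Groups were compared with limma on log2(CPM + 0.1), for genes whose mean exceeded 1 CPM, with Benjamini-Hochberg adjustment over all genes tested. The cell type on the labels held in the IP: all 6 astrocyte markers were higher in IP than in INPUT in naïve mice, and their summed level was 89750 to 93950 CPM in naïve IP against 5765 to 6121 CPM in naïve INPUT. Of 38 tested markers of other cells, 33 were lower in IP in naïve mice, 2 were higher and 3 were not called. The lower ones included all 27 markers of neurons, the oligodendrocyte lineage, microglia and endothelium, and the higher ones were 1 mural and 1 meningeal marker. The summed mural markers were higher in naïve IP (135 to 156 CPM) than in naïve INPUT (60.6 to 69.7 CPM). However, of 4 tested mural markers 3 were lower in naïve IP, with a median log2 ratio of −2.41. Naïve IP library 2 and naïve INPUT library 3 stood apart with 125.8 and 19.6 CPM of summed choroid plexus and ependyma markers, where the other 14 libraries had 5.47 to 12.0 CPM. The counts of members called below were the same with and without either of these libraries.

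Kcnj10 encodes the main potassium channel subunit of astrocytes and lies on chromosome 1 of GRCm38, 172341210 to 172374085, plus strand. In naïve IP its level was 2128, 2742, 1651 and 3107 CPM, and in stress IP it was 2638, 2615, 2482 and 2473 CPM. In INPUT it was 83.4, 153, 69.0 and 127 CPM in naïve mice and 87.7, 128, 119 and 83.7 CPM in stressed mice. The stress IP values were close together, whereas each of the other groups held 2 higher and 2 lower libraries. Kcnj16 encodes a subunit that joins that of Kcnj10 in one mixed channel and lies on chromosome 11, 110968033 to 111027968, plus strand. It was at 469, 458, 419 and 397 CPM in naïve IP and at 500, 437, 411 and 372 CPM in stress IP. The INPUT values were 52.1, 41.7, 40.8 and 42.3 CPM in naïve mice and 43.8, 42.2, 44.6 and 39.4 CPM in stressed mice. Per kilobase of exon, so that the 2 subunits can be set side by side, Kcnj10 stood at 4.06 ± 1.26 times the level of Kcnj16 in naïve IP and 4.36 ± 0.41 times in stress IP (SD, n = 4 each). In INPUT the ratio was 1.82 ± 0.74 in naïve and 1.79 ± 0.35 in stressed mice, and the highest INPUT ratio, 2.68, was below the lowest IP ratio, 2.87.

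The sequences before the starts of these subunit genes are shown because the channel they build is shared. Their part in the levels of the genes was not tested. Both come from RefSeq on GRCm38.p6, on the plus strand, and run up to the base before the start. Capitals mark the pentamer CCAAT, the CCAAT box, on either strand.
Kcnj10, chr1:172340960-172341209: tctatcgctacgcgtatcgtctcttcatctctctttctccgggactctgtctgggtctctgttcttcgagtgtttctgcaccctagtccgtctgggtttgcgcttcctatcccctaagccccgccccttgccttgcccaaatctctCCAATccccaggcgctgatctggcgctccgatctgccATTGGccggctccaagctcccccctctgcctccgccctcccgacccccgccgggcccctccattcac
Kcnj16, chr11:110967783-110968032: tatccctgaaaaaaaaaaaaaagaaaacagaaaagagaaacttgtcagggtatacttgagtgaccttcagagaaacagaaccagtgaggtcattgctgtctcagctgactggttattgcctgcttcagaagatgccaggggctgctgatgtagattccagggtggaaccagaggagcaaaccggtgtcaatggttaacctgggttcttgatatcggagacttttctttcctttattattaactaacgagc
The stretch before Kcnj10 had a GC content of 62.0% and held 2 copies of CCAAT, 1 of TTGGC, a short form of the nuclear factor I site that overlaps 1 of them, and 1 of AGAACA, a short form of the glucocorticoid receptor site, with both strands searched. The stretch before Kcnj16, the outermost of 4 starts listed for the gene, had a GC content of 42.8% and held none of these nor AACAAT, a Sox-type site, which was also missing before Kcnj10. Among 32851 promoters of the same length, with a median GC content of 52.4%, CCAAT was found in 33.9%, TTGGC in 41.5%, AGAACA in 16.1% and AACAAT in 9.42%. These matches describe letters only, and no binding was measured.

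Aqp4 encodes the water channel of the endfoot and lies on chromosome 18, 15389496 to 15410982, minus strand. Its level was 1362, 1425, 1347 and 1426 CPM in naïve IP and 1503, 1570, 1568 and 1740 CPM in stress IP. Each of the 4 stress IP libraries was above each of the 4 naïve IP libraries. In INPUT Aqp4 was at 137, 139, 115 and 128 CPM in naïve and 126, 142, 121 and 130 CPM in stressed mice, and these groups overlapped.

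Dtna encodes alpha-dystrobrevin, a cytoplasmic part of the dystrophin complex, and lies on chromosome 18, 23415135 to 23659715, plus strand. It had 705, 720, 630 and 662 CPM in naïve IP and 686, 725, 710 and 640 CPM in stress IP. In INPUT it had 180, 172, 163 and 178 CPM in naïve and 177, 161, 173 and 181 CPM in stressed mice. Both pairs of groups overlapped. Dtna shares 90 exonic bases with the antisense gene Gm47898, and whether reads were counted by strand is not given in the sources used here, so a small part of its reads may not be its own. None of the other 7 members overlaps an exon of another gene.

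Dag1 encodes dystroglycan, the receptor that spans the membrane and binds laminin, and lies on chromosome 9, 108204634 to 108263958, minus strand. Its level was 395, 378, 400 and 370 CPM in naïve IP and 349, 361, 364 and 369 CPM in stress IP. The highest stress IP value was just below the lowest naïve IP value. In INPUT it was at 123, 128, 122 and 126 CPM in naïve and 116, 119, 126 and 127 CPM in stressed mice, with overlap.

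Atp1b2 encodes the beta subunit of the sodium pump that is typical of glia, which also acts in cell adhesion, and lies on chromosome 11, 69599736 to 69605942, minus strand. It was at 1313, 1616, 1539 and 1646 CPM in naïve IP and at 1396, 1130, 1443 and 1456 CPM in stress IP. In INPUT it was at 80.0, 96.7, 88.2 and 94.9 CPM in naïve and 64.0, 81.7, 85.2 and 75.1 CPM in stressed mice. The mean was lower after stress in both, and in both the groups overlapped. Fxyd1 encodes phospholemman, a small membrane protein that regulates the pump, and lies on chromosome 7, 31051678 to 31057199, minus strand. It had the lowest levels of the 8 genes, 121, 104, 105 and 122 CPM in naïve IP and 110, 114, 123 and 124 CPM in stress IP. In INPUT it had 20.7, 17.7, 19.6 and 18.6 CPM in naïve and 19.7, 22.7, 18.5 and 23.7 CPM in stressed mice.

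Slc4a4 encodes the electrogenic sodium bicarbonate cotransporter and lies on chromosome 5, 88886818 to 89239653, plus strand. Its level in IP was 2661, 2773, 2639 and 2656 CPM in naïve and 2633, 2717, 2840 and 2720 CPM in stressed mice. In INPUT it was 154, 172, 143 and 155 CPM in naïve and 154, 152, 148 and 180 CPM in stressed mice. The groups overlapped in both, and the IP values of Slc4a4 were among the most even of the 8 genes.

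**Figure D1:**
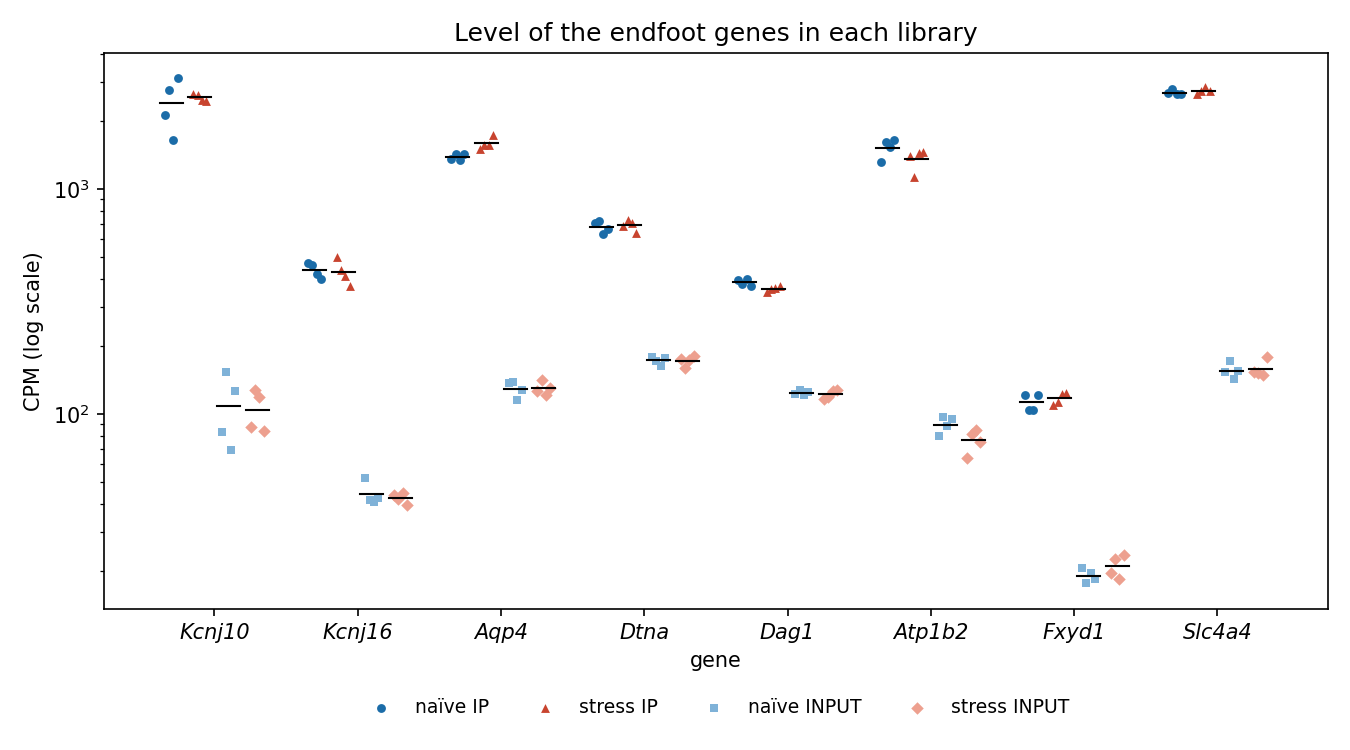
CPM (log axis) of the 8 genes in the 16 libraries, 4 points for each group and gene, with a black bar at the group mean. All 8 genes are higher in IP than in INPUT in every library, and the Kcnj10 points spread from 1651 to 3107 CPM in naïve IP but only from 2473 to 2638 CPM in stress IP.

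The members together took 9621 ± 807 CPM in naïve IP, with 9829 ± 119 CPM in stress IP, or 0.962% and 0.983% of all reads on genes. In INPUT they took 846 ± 67.5 and 829 ± 27.2 CPM, or 0.0846% and 0.0829%. Per kilobase of exon, the order in naïve IP was Kcnj10 (445 ± 119 CPM per kb), Atp1b2 (374 ± 36.9), Slc4a4 (248 ± 5.64), Aqp4 (223 ± 6.62), Kcnj16 (111 ± 8.47), Dag1 (60.7 ± 2.16), Fxyd1 (51.6 ± 4.49) and Dtna (40.1 ± 2.42; SD, n = 4 each). Only the neighbours Kcnj10 and Atp1b2 had overlapping libraries. The order depends on the length used, an alternative added after seeing the data: per kilobase of the longest transcript, Atp1b2 had 538 ± 53.0 and Kcnj10 445 ± 119 CPM per kb, again with overlap, and Fxyd1, whose longest transcript measures 0.62 kb against 2.19 kb for all its exons, moved up to the fifth place with 182 ± 15.8 CPM per kb.

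To ask how far the RNA of each gene was enriched on astrocyte ribosomes, IP was compared with INPUT within each condition. All 8 members were higher in IP in naïve mice, from 3.09 times for Dag1 to 22.7 times for Kcnj10, with adjusted p between 6.52e-15 and 3.59e-10. Over all 13339 genes tested, 23.7% were called higher in IP, with a median log2 ratio of −0.64, against a median of 3.36 over the members. In stressed mice all 8 were higher as well, with adjusted p between 2.12e-13 and 3.04e-11 and a median log2 ratio of 3.47, where 23.6% of 13333 genes were called higher and the median of all genes was −0.63. Each library is scaled to its own total, so the ratios are relative to the whole library, and the median of all genes lies below 0. Relative to that median, a measure added after seeing the data, the log2 ratio of Kcnj10 in naïve mice was 5.14.

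The channel subunits differed in this ratio. Kcnj10 had a log2 ratio of 4.50 in naïve mice (SE 0.23, 95% interval 4.00 to 5.01), the highest of the 13339 genes tested, although its interval is wide and overlaps those of Slc4a4 and Atp1b2. Kcnj16 had 3.30 (SE 0.08, interval 3.13 to 3.48), at place 138. In stressed mice the log2 ratios were 4.63 (SE 0.12) for Kcnj10 and 3.33 (SE 0.08) for Kcnj16.

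Slc4a4 and Atp1b2 followed Kcnj10, with log2 ratios in naïve mice of 4.10 (SE 0.06, interval 3.98 to 4.23) and 4.08 (SE 0.08, interval 3.91 to 4.25), at places 7 and 8 of all genes. The water channel gene Aqp4 had 3.42 (SE 0.06, interval 3.29 to 3.56), at place 106. Fxyd1 had 2.55 (SE 0.08, interval 2.39 to 2.72), at place 460. The anchoring genes had the lowest ratios of the 8, 1.97 for Dtna (SE 0.06, interval 1.85 to 2.09) and 1.63 for Dag1 (SE 0.05, interval 1.52 to 1.73), at places 856 and 1111. INPUT holds RNA of all cells, and fewer cells of a type cannot be told apart there from less RNA per cell. IP holds only ribosome-bound RNA, so the ratio cannot separate astrocyte RNA from RNA more fully bound to ribosomes.

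**Figure D2:**
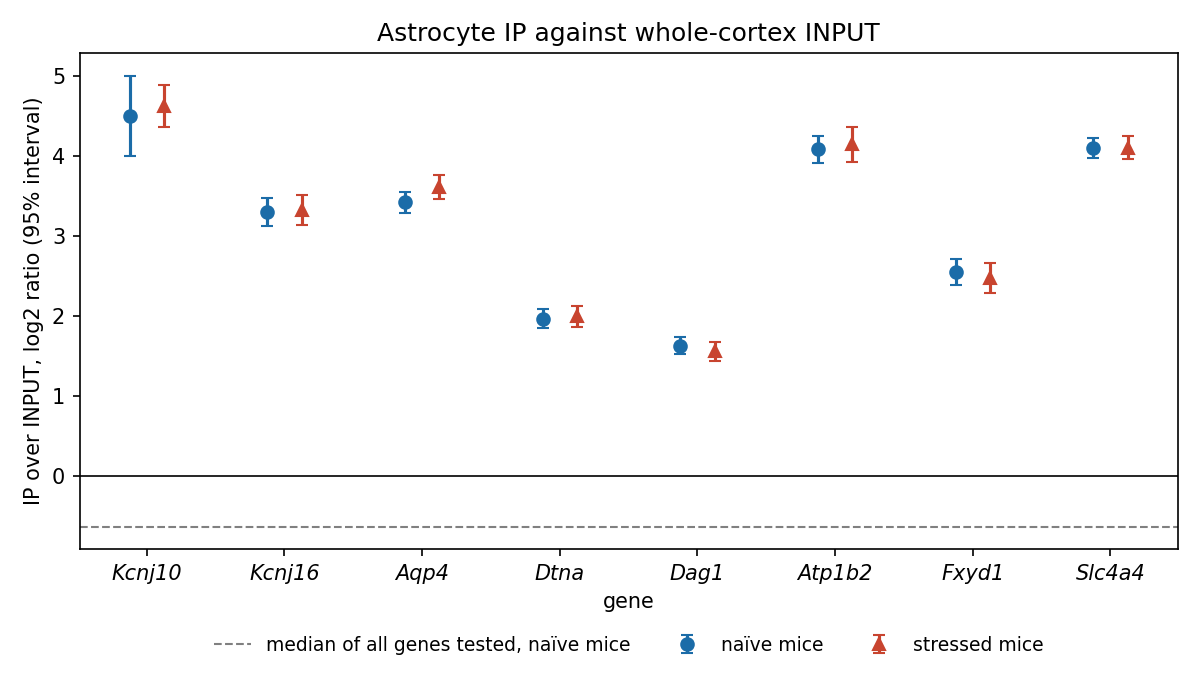
Log2 ratio of IP over INPUT for the 8 genes in naïve mice (circles) and stressed mice (triangles), with 95% intervals from limma on 4 against 4 libraries. All 8 ratios lie above 0 and above the dashed median of all genes in naïve mice (−0.64), with the transport genes Kcnj10, Slc4a4 and Atp1b2 above 4.0 and the anchoring genes Dtna and Dag1 at 1.97 and 1.63.

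A wider list of 53 genes of the same machinery, which leaves out the 8 members, had calls both ways: of 50 tested in naïve mice, 21 were higher in IP, 22 lower and 7 not called, beside 3158 higher and 8540 lower of all 13339 genes. Of 9 tested subunits and regulators of the sodium pump, 2 were higher and 7 lower, a split close to that of all genes. Among the lowest ratios of the list were those of Fxyd7, a pump regulator of neurons, with a log2 ratio of −4.09 (SE 0.12), and Kcnj4, an inward rectifier subunit gene, with −4.01 (SE 0.19). Of the 8 other inward rectifier subunit genes on the list, 7 were lower in IP in naïve mice and 1 was higher. The higher one, named after its values were seen, was Kcnj13, with 3.21 CPM in naïve IP against 1.45 CPM in naïve INPUT (log2 ratio 1.01, adjusted p 0.027). In stressed mice it was not called (log2 ratio 0.07, adjusted p 0.83), while the same number, 7, were lower. The naïve call of Kcnj13 was lost without naïve IP library 2, which held choroid plexus RNA (log2 ratio 0.87, adjusted p 0.080). It was also lost without naïve IP library 11 (0.70, adjusted p 0.087), naïve INPUT library 7 (0.73, adjusted p 0.092) or naïve INPUT library 3 (1.00, adjusted p 0.053). With all libraries kept, it was lost with array weights (0.65, adjusted p 0.10) and with no variance trend (adjusted p 0.054).

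Among genes of water and volume regulation, 4 of 5 tested were higher in IP and none lower, led by Mlc1, a membrane protein of endfeet with a log2 ratio of 3.48 (SE 0.05). Of 7 genes of sodium, bicarbonate and chloride transport, 3 were higher and 4 lower, and the highest was the potassium chloride cotransporter gene Slc12a4 with 3.25 (SE 0.07). The dystrophin complex had 6 higher, 3 lower and 3 not called of 12 genes, and the basement membrane ligands had 4 higher, 1 lower and 1 not called of 6. Of 3 tandem-pore potassium channel genes, 1 was higher and 2 were not called.

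Stress was then compared with naïve in IP, to ask whether the swim changed the ribosome-bound RNA of these genes. None of the 8 members passed the threshold, where 0.440% of 12501 genes did. At an unadjusted p under 0.05 there was 1 member, Aqp4, against 8.27% of all genes, and no alternative fit called a member. Groups without overlap were seen for 2 members, Aqp4 and Dag1, against 5.00% of all genes. The median log2 difference was 0.02 over the members and 0.00 over all genes.

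Aqp4 stood at 1390 ± 41.3 CPM in naïve IP against 1595 ± 101 CPM in stress IP (SD, n = 4 each), which is 14.6% higher on the fitted scale (log2 difference 0.20, SE 0.06, 95% interval 0.07 to 0.33). Its unadjusted p was 0.0061 and its adjusted p 0.31, and the exact two-sided permutation test over 70 labelings gave p = 0.029, the smallest that 4 against 4 libraries allow. Leaving out each library in turn moved the log2 difference between 0.15 and 0.23. Dag1 went the other way, 386 ± 13.7 against 361 ± 8.65 CPM, with a log2 difference of −0.10 (SE 0.05, interval −0.20 to 0.01, adjusted p 0.67, exact permutation p = 0.029). Atp1b2 stood at 1528 ± 151 CPM in naïve IP, with 1356 ± 153 CPM in stress IP (log2 difference −0.17, SE 0.09, adjusted p 0.69).

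For the potassium channel subunits the differences were within the spread. Kcnj10 had 2407 ± 646 CPM in naïve IP, with 2552 ± 86.7 CPM in stress IP, with a log2 difference of 0.13 (SE 0.15, adjusted p 0.88) and an interval from −0.21 to 0.46 that leaves room for a sizeable change either way. Without naïve IP library 11, which had the lowest Kcnj10, the log2 difference was −0.04. Kcnj16 differed by −0.02 (SE 0.09, interval −0.22 to 0.17), Fxyd1 by 0.06 (SE 0.07, interval −0.09 to 0.22), and Dtna and Slc4a4 each by 0.02 (SE 0.06 and 0.05, intervals −0.11 to 0.16 and −0.09 to 0.14), with adjusted p from 0.86 to 0.96. None of the 49 genes of the wider list tested in IP was called.

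**Figure D3:**
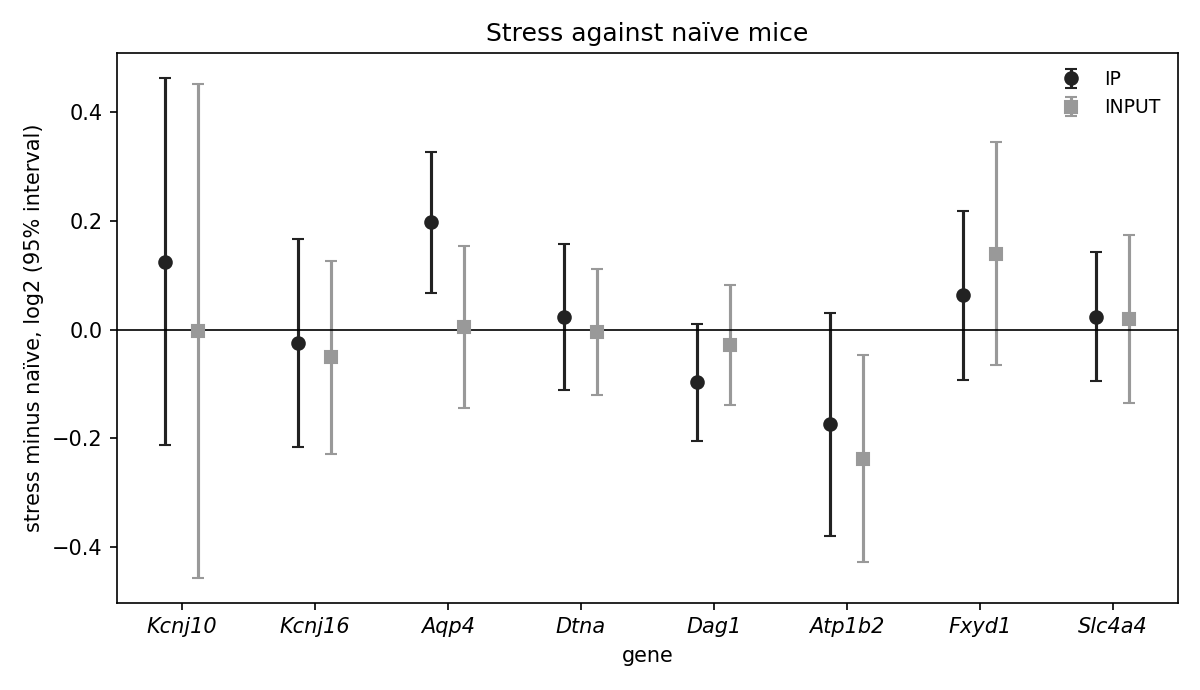
Log2 difference of stressed against naïve mice for the 8 genes in IP (circles) and INPUT (squares), with 95% intervals from limma on 4 against 4 libraries. The intervals of 7 genes in IP include 0, that of Aqp4 runs from 0.07 to 0.33, and Kcnj10 has the widest interval in both IP and INPUT.

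In INPUT no member was called either, where 0.0442% of 13577 genes were, and no member had groups without overlap, against 2.87% of all genes. At an unadjusted p under 0.05 there was 1 member, Atp1b2, against 5.03% of all genes. Atp1b2 had 89.9 ± 7.59 CPM in naïve mice against 76.5 ± 9.32 CPM in stressed mice (log2 difference −0.24, SE 0.09, interval −0.43 to −0.05, unadjusted p 0.018, adjusted p 0.86, exact permutation p = 0.086). Kcnj10 had 108 ± 38.9 and 105 ± 22.1 CPM, a log2 difference of 0.00 with an interval from −0.46 to 0.45. Aqp4 had 130 ± 11.0 and 130 ± 8.82 CPM, also a difference of 0.00, with an interval from −0.14 to 0.15. The other 5 members differed by −0.05 to 0.14 on the log2 scale.

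The stress effect in IP minus that in INPUT was tested over all 16 libraries. No member was called, where 0.0225% of 13341 genes were, and no member reached an unadjusted p under 0.05, against 4.71% of all genes. For Aqp4 the difference was 0.19 on the log2 scale (SE 0.09, interval −0.0014 to 0.39, unadjusted p 0.051). For Atp1b2, lower after stress on average in both IP and INPUT, it was 0.06 (SE 0.14, interval −0.23 to 0.35). The interval for Kcnj10 ran from −0.51 to 0.76 and so allows a wide range. No gene of the wider list passed the threshold in INPUT or in this test.

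In 3 of the 4 groups Kcnj10 varied more between libraries than any other member, and in stress IP it varied less than most of them. The SD of its log2 level within groups, pooled over the 4 groups, was 0.37, which put it at place 21 from the widest among 2201 genes with a mean of at least 100 CPM, where the median was 0.0966. The highest library had 1.88 times the Kcnj10 level of the lowest in naïve IP, 2.22 times in naïve INPUT, 1.52 times in stress INPUT and 1.07 times in stress IP. The SD within stress IP was 0.05, against 0.40, 0.53 and 0.31 in naïve IP, naïve INPUT and stress INPUT. In stress IP, Kcnj16 had an SD of 0.18, Atp1b2 0.17, Aqp4 0.09, Fxyd1 0.08 and Dtna 0.08, all above that of Kcnj10, and Slc4a4 and Dag1 were below it. Whether these spreads differ between groups was not tested.

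**Figure D4:**
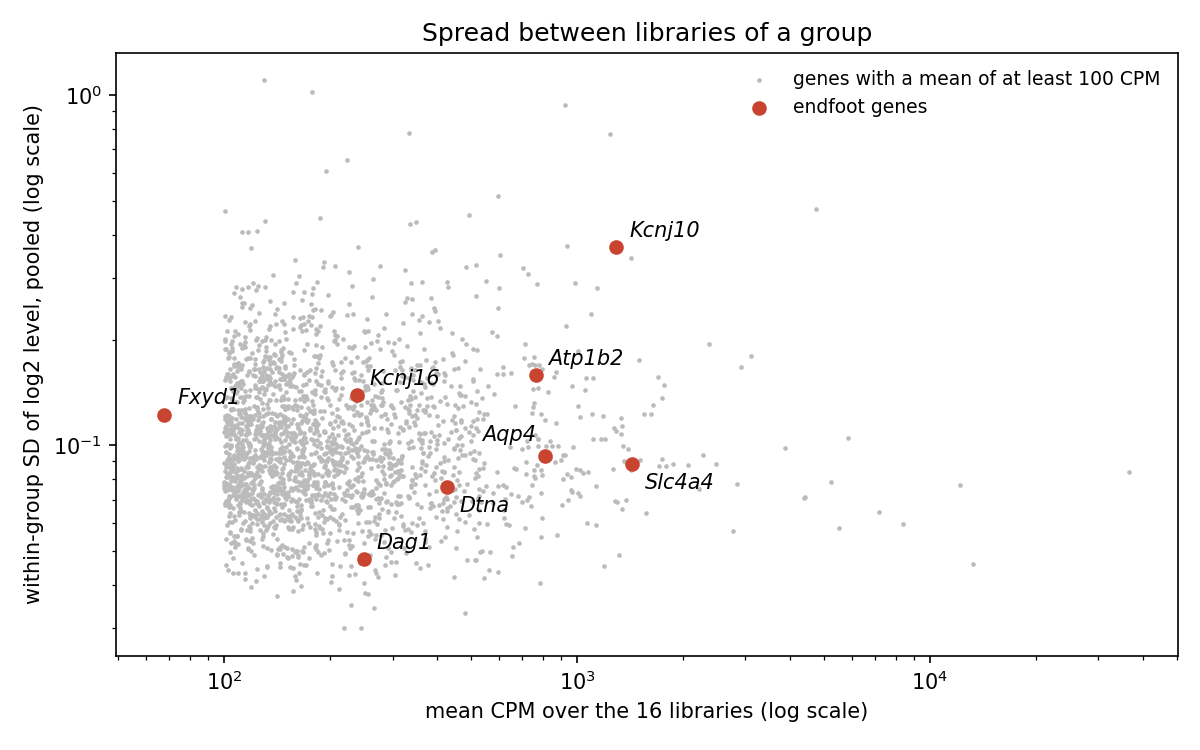
Pooled within-group SD of the log2 level against mean CPM over 16 libraries (both log axes). Shown are the 2201 genes with a mean of at least 100 CPM, except Xist, which is not drawn (grey), and the 8 endfoot genes (red). Kcnj10 lies near the top at 0.37, the other members between 0.0473 for Dag1 and 0.16 for Atp1b2.

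The partner subunit gene Kcnj16 had a pooled SD of 0.14 (place 513), Atp1b2 0.16 (place 361), Aqp4 0.0933 (place 1173), Slc4a4 0.0887 (place 1284), Dtna 0.0760 (place 1583) and Dag1 0.0473 (place 2137). Fxyd1, with a mean of 67.7 CPM, is below the level of the ranked genes and had 0.12. Dag1 was thus near the even end of the ranked genes. Over the 16 libraries, the deviations of Kcnj10 from its group means had a Pearson r of 0.50 with those of Atp1b2, 0.46 with Aqp4, 0.23 with Slc4a4, 0.11 with Dtna, −0.06 with Kcnj16, −0.08 with Dag1 and −0.22 with Fxyd1. These are descriptions over libraries that share mice, depth and lysate, with no test.

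**Figure D5:**
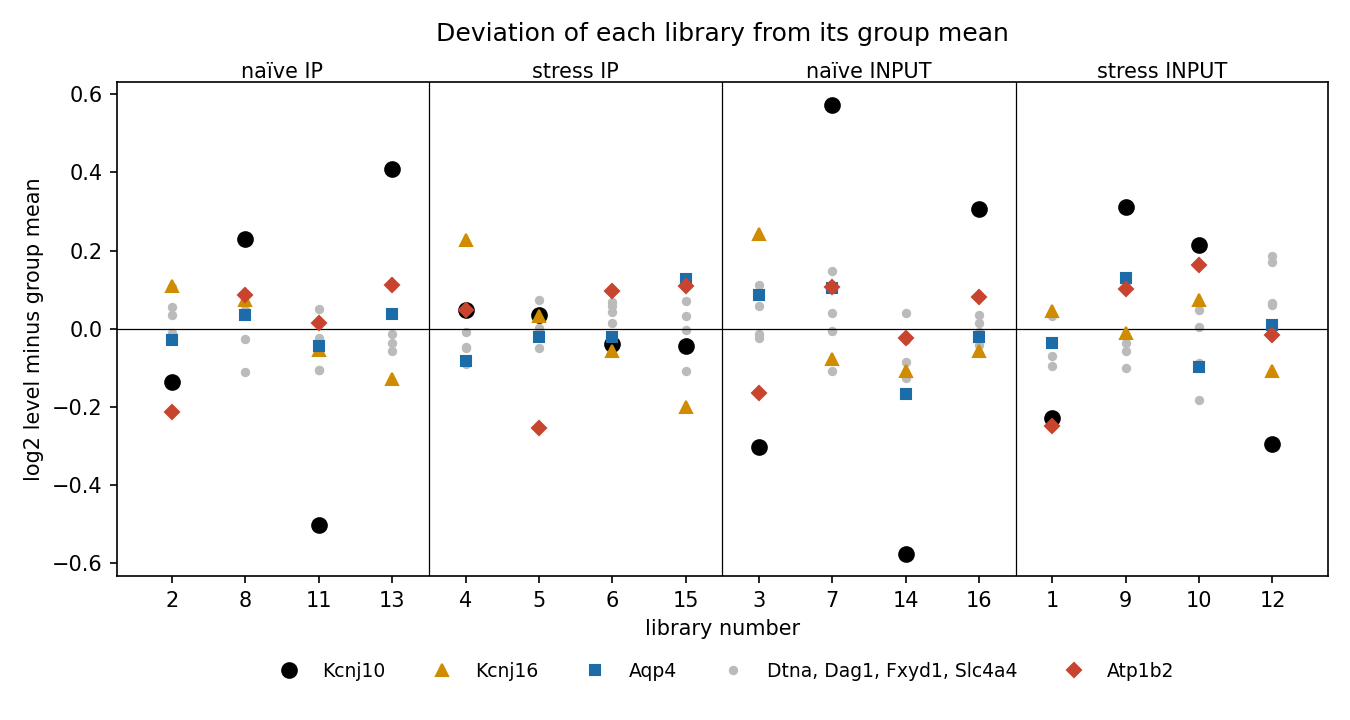
Log2 level minus the group mean for each of the 16 libraries, with Kcnj10 as large black circles and the other 7 genes as smaller marks. Kcnj10 runs from −0.50 to 0.41 in naïve IP and from −0.58 to 0.57 in naïve INPUT, and stays within −0.04 and 0.05 in stress IP.

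The genes whose deviations were most like those of Kcnj10, among 9536 genes with a mean of at least 10 CPM, were Cobl (r = 0.89), Spry4 (0.88), Pip4k2a (0.88), Srgap1 (0.86), Etv5 (0.86), Cbfa2t3 (0.85), Fmnl1 (0.85), Ankrd29 (0.85), Golga3 (0.85) and Hivep3 (0.84), over 16 libraries. None of the 10 is an endfoot gene of the lists used here. They differ in their levels in IP and INPUT: Srgap1 had 63.3 CPM in naïve IP and 8.88 CPM in naïve INPUT, whereas Cobl had 17.7 and 172 CPM. They were picked for a high r over these same libraries, so the values are a description only.

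The study's methods state that males and females were used, but sex is not given for single libraries. Xist, the RNA that coats the inactive X chromosome of females, was therefore set beside Kcnj10 after seeing the data. Xist was at 122 to 665 CPM in 8 libraries, 2 of each group, and at 0.0997 to 0.456 CPM in the other 8. In naïve IP, Kcnj10 was at 2128 and 2742 CPM in the libraries with Xist and at 1651 and 3107 CPM in those without it. In naïve INPUT the same split gave 83.4 and 127 CPM against 153 and 69.0 CPM, and in stress INPUT 87.7 and 119 CPM against 128 and 83.7 CPM. In each of these 3 groups a higher and a lower library stood on either side of the Xist split. In stress IP, both libraries with Xist, at 2638 and 2615 CPM, were above both without it, at 2482 and 2473 CPM. The part of sex in the Kcnj10 values was not tested. With Xist as a covariate, no member was called in either stress comparison or in the test of their difference.

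Summed markers of cell types were read beside these values. The naïve IP libraries with lower Kcnj10, 2 and 11, had summed endothelial markers of 15.6 and 18.2 CPM, and the libraries with higher Kcnj10, 8 and 13, had 10.9 and 11.6 CPM. In naïve INPUT the endothelial sum was 88.0 and 57.4 CPM in the lower libraries 3 and 14 and 82.4 and 79.0 CPM in the higher libraries 7 and 16. The summed oligodendrocyte markers were 168 and 123 CPM in the lower and 158 and 176 CPM in the higher naïve IP libraries. Astrocyte and neuronal sums overlapped between the lower and higher libraries in both naïve fractions. Mural and oligodendrocyte precursor sums were higher in the lower libraries in naïve IP and overlapped in naïve INPUT. Meningeal and microglial sums were higher in the lower libraries in both naïve fractions, which came from the same mice. Meningeal sums were 59.0 and 82.7 against 45.4 and 43.3 CPM in naïve IP. In naïve INPUT they were 44.9 and 47.6 against 33.2 and 44.7 CPM. Microglial sums were 23.25 and 21.27 against 20.96 and 18.56 CPM in naïve IP. In naïve INPUT they were 214.9 and 203.4 against 198.8 and 197.3 CPM. The libraries with the most choroid plexus RNA, naïve IP library 2 and naïve INPUT library 3, were both among those with lower Kcnj10, but library 11 and library 14 were lower still, with choroid sums of 9.71 and 6.68 CPM. In stress INPUT, libraries 1 and 12 had lower Kcnj10 than libraries 9 and 10. Endothelial sums there were 65.4 and 69.1 against 48.0 and 58.4 CPM, and mural sums 68.7 and 65.3 against 56.3 and 57.4 CPM. Astrocyte, neuronal and oligodendrocyte precursor sums went the other way. Astrocyte sums were 5246 and 5736 against 5751 and 5797 CPM, and neuronal sums 9630 and 9619 against 11270 and 10130 CPM. Precursor sums were 118.5 and 117.0 against 138.3 and 121.3 CPM. Meningeal, microglial and oligodendrocyte sums overlapped between these libraries. The part of these cells in the Kcnj10 values was not tested.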

How the data were processed

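RNA was sequenced from 16 libraries in 4 groups of 4. The authors used STAR for alignment to mm10 and HTSeq to count uniquely mapped fragments per RefSeq gene, and deposited log2 CPM of 24060 genes per library. The deposited values have a floor of −6.40 and sum to 1000000 once transformed back, and 100% came out as whole reads (tolerance 0.1, checked up to 10000 reads).

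Comparisons used limma 3.58.1 in R 4.3.3 with a variance trend, on log2(CPM + 0.1), an adjusted p under 0.05, and an exact two-sided permutation test for single members. With this pseudocount, fold changes of low genes are understated. Tables and plots used Python 3.11.15, pandas 2.3.3, NumPy 2.4.6, SciPy 1.17.1 and matplotlib 3.10.9. The limma script was also tested on simulated data. Exon lengths and coordinates came from GENCODE M21 (GRCm38), where 94.6% of symbols were found.

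The members and gene lists were chosen with earlier results of these data known. Named were the members, the 3 highest and 3 lowest ratios of the wider list, any gene of it past the threshold in a stress test, and the 10 genes most like Kcnj10. Some genes that this rule names are not reported here. Alternatives were other pseudocounts, filters, scalings, limma-voom on recovered reads, array weights, no trend, all libraries in 1 model, Xist as a covariate and each library left out. Whether libraries of a group came from separate mice follows from the study's methods, and sex and mouse are not given per library. The methods and the labels give different intervals after tamoxifen.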

Additional observations from a re-analysis of the deposited data

Results flagged for a closer look

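In 84 groups of 4 libraries, for the 8 members, 4 genes of the wider list and 9 marker sums, 7 held a library far from the other 3 (by Dixon's ratio of the gap to the whole range, at the 95% level), where chance gives about 1 in 20, or 4.2. Among the members, Kcnj16 was at 52.1 CPM in naïve INPUT library 3 against 40.8 to 42.3 CPM in the others. Slc4a4 was at 2773 CPM in naïve IP library 8 against 2639 to 2661 CPM, and at 179.8 CPM in stress INPUT library 12 against 148.5 to 153.7 CPM. The summed astrocyte markers were at 5246 CPM in stress INPUT library 1 against 5736 to 5797 CPM. Choroid plexus and ependyma markers summed to 125.8 CPM in naïve IP library 2 against 8.56 to 9.81 CPM, and to 19.6 CPM in naïve INPUT library 3 against 6.68 to 7.83 CPM. Microglial markers summed to 28.5 CPM in stress IP library 15 against 17.0 to 18.2 CPM. No group of Kcnj10 was among them.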

How the results depend on the processing

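In every alternative run for it, and with each library left out in turn, all 8 members were called higher in IP in both conditions and none was called in a stress comparison or in the test of the difference. Xist as a covariate was run only for the last 3. The pooled SD of Kcnj10 ranged from 0.33 to 0.38. The adjusted p of Aqp4 in stress IP ranged from 0.11 to 0.61. Signs changed only for stress differences that were not called. In IP, leaving out libraries moved Kcnj10 between −0.042 and 0.26 (log2), Kcnj16 between −0.10 and 0.042 and Dtna between −0.012 and 0.059. In INPUT the ranges were −0.19 to 0.19 for Kcnj10, −0.088 to 0.029 for Kcnj16, −0.051 to 0.039 for Aqp4, −0.033 to 0.029 for Dtna and −0.042 to 0.069 for Slc4a4. For the stress effect in IP minus that in INPUT they were −0.064 to 0.32 for Kcnj10, −0.054 to 0.093 for Kcnj16, −0.0074 to 0.064 for Dtna, −0.020 to 0.15 for Atp1b2 and −0.045 to 0.066 for Slc4a4. In INPUT, Kcnj10 was at 0.014 with limma-voom, Aqp4 at −0.0022 with quantile normalization and −0.014 with array weights, and Dtna at 0.0029 with quantile normalization. The difference of effects for Slc4a4 was −0.0054 with median-ratio rescaling and −0.027 with array weights. The cause was not tested.

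Counts over all genes moved more. In IP, 55 genes were called after stress, against 143 with array weights, 19 with no variance trend, 124 with all libraries in 1 model, and 17 to 122 with a library left out, the highest without naïve IP library 11 and the lowest without naïve IP library 13. In INPUT the 6 genes became 50 with array weights, 2 with all libraries in 1 model, and 1 to 32 with a library left out. With limma and no variance trend they became 0, with 727 at an unadjusted p under 0.05. The 3 genes of the difference became 19 with array weights and 2 to 28 with a library left out. Median-ratio rescaling split the naïve calls into 5599 higher and 5635 lower in IP, against 3158 and 8540, and the stressed calls into 5461 and 5505, against 3143 and 8332. No paired analysis was possible because the groups share no library numbers and the labels do not tie IP to INPUT libraries.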
